A study of Mus musculus with 28 samples.

Results

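Gene expression was compared between the hearts of 7 del337TR mice and 7 control mice that had all received WY14643, which make up 14 of the 28 arrays of the study. The arrays were chosen by their titles, and the other 14 arrays are 7 untreated control and 7 untreated del337TR hearts. Every array read total RNA from frozen mouse heart as 1 signal for each of 45037 probe sets once the 64 control probe sets were left out. The labels describe del337TR as a deletion strain within a study of resistance to thyroid hormone. They do not say which receptor gene, allele or promoter is involved, and they give no dose or duration of WY14643, no age and no background strain. WY14643, an activator of PPARalpha, was given to both strains, so the comparison asks how the strains differ when both have received it. The design counts individuals, and with nothing said about litters or hybridisation days the p-values measure only the spread between these arrays.

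Thyroid hormone receptors are nuclear receptors that pair with a retinoid X receptor on DNA, switch genes on when hormone is bound and hold many of them down when it is not. In the adult rodent heart the hormone favours the fast myosin heavy chain Myh6 over the slow chain Myh7 and raises genes of pacing, calcium cycling and fuel use. PPARalpha, the receptor that WY14643 activates, pairs with the same retinoid X receptors and drives genes of fatty acid uptake and oxidation. Both receptors read copies of the hexamer AGGTCA, spaced differently.

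No probe set differed between the treated strains after adjustment in limma with Benjamini-Hochberg correction over the 45037 probe sets at a threshold of 0.05, and the lowest adjusted p was 0.403. At an unadjusted p under 0.05 there were 3991 probe sets, 8.86% of those tested, where 2252 would be expected from 5 in 100. Of these, 2363 (5.25%) were higher and 1628 (3.61%) lower in del337TR hearts. Below an unadjusted p of 0.001 lay 108 probe sets, where 45 would be expected. The balance of higher and lower depended on the scaling of the arrays. It was 1833 higher against 2046 lower after quantile normalization, and 1246 against 2964 when each array was centred on its median. With 1 probe set per gene, the brightest, 1860 of 18193 genes (10.2%) reached an unadjusted p under 0.05, of which 1028 (5.65%) were higher and 832 (4.57%) lower. The median log2 difference over all genes was 0.02, with 53.6% of genes above 0 and 46.4% below it. Each count below is to be read against these shares, and an unadjusted p, always from limma unless a permutation test is named, is a rank among many tests and not a call. Groups that did not overlap at all were rarer, with 25 probe sets wholly higher (0.0555%) and 23 wholly lower (0.0511%) in del337TR hearts.

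**Figure D1:**
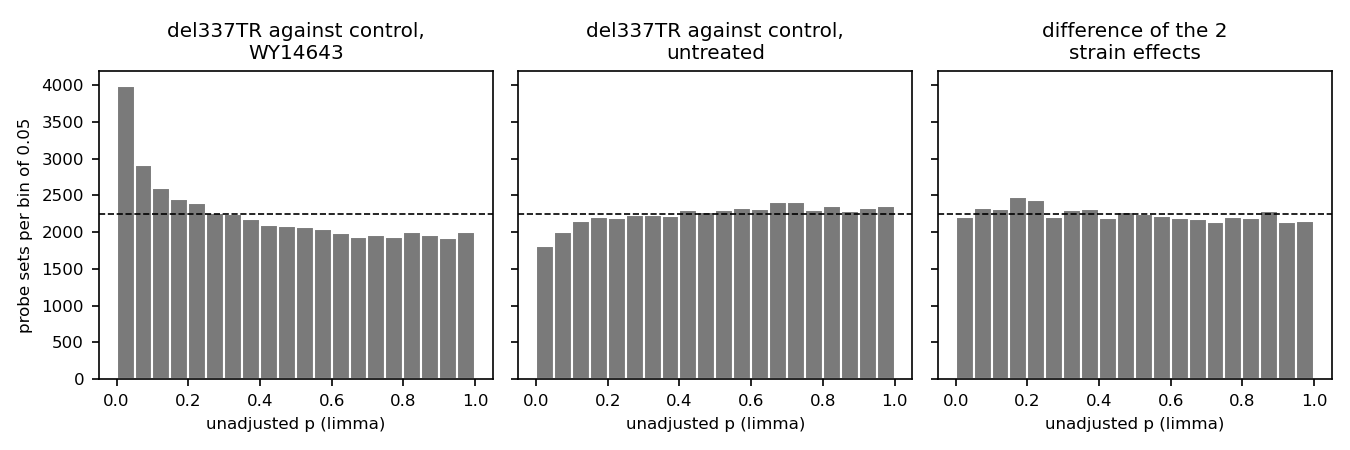
Number of probe sets (vertical axis) by unadjusted limma p in bins of 0.05 (horizontal axis), for del337TR against control with WY14643, the same contrast without WY14643, and the difference of both strain effects. The dashed line marks 2252 probe sets per bin, the number an even spread would give, and the first bin holds 3991, 1806 and 2207 probe sets.

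The treated controls did not form 1 tight group, which bears on many of the genes below. Over the 1860 genes with an unadjusted p under 0.05, chosen by this same contrast, control replicate 7 lay beyond all 7 del337TR arrays, in the direction of the difference, for 1342 genes, replicate 4 for 1279, replicate 1 for 1205 and replicate 6 for 1013. Control replicates 2, 3 and 5 did so for only 637, 702 and 702 genes. Among the del337TR arrays the counts ran from 707 for replicate 2 to 1172 for replicate 7. Control replicate 7 also had the lowest mean correlation with its own group, 0.931 against 0.947 to 0.951 for the other six, and the highest ratio of 3′ to 5′ actin signal, 1.82 against 1.19 to 1.43, a measure of RNA integrity. In del337TR hearts this ratio ran from 1.09 to 1.34 (exact permutation test, two-sided, p = 0.0594, 0.267 after adjustment over all array measures). The 3′ to 5′ ratio of Gapdh did not set control replicate 7 apart in this way. It stood at 0.825 in that array, within the del337TR range of 0.774 to 0.831. The treated controls ran from 0.798 to 0.825 in the Gapdh ratio (exact permutation test, two-sided, p = 0.330). Without control replicate 7 the number of probe sets at an unadjusted p under 0.05 was 3380. Leaving out other single arrays lowered it about as far, to 3376 without del337TR replicate 7 and 3399 without control replicate 4. Control replicates 1, 4, 6 and 7 with WY14643 and untreated control replicate 7 share a low signal of Myh7, given below. Whether these hearts differed from the other controls in dosing or in what their labels should say cannot be read from the labels and was not tested, and every strain difference below carries this doubt. The part of RNA integrity in the differences was not tested.

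**Figure D2:**
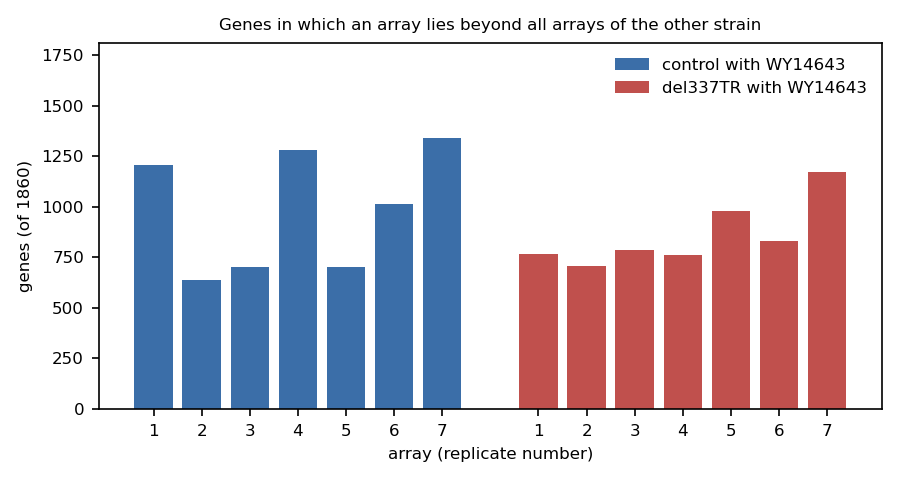
Number of genes, of the 1860 with an unadjusted p under 0.05, in which an array lies beyond all 7 arrays of the other strain in the direction of the difference (vertical axis), for each of the 14 treated arrays (horizontal axis). Control replicates 1, 4, 6 and 7 reach 1013 to 1342 genes and control replicates 2, 3 and 5 reach 637 to 702.

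The sexes were unevenly divided. By the signals of Xist and Eif2s3y, which mark female and male cells, 3 of the 7 treated controls and 1 of the 7 treated del337TR mice were female, and controls on either side of the split just described were of both sexes. In the 17 array measures set side by side, the lowest p belonged to the summed signal of adipocyte markers, which was 489 to 713 with a median of 557.7 in del337TR hearts and 573 to 866 with a median of 755 in controls (exact permutation p = 0.00816, 0.139 after adjustment over the 17 measures). In the controls the lipase Lipe, which heart muscle also expresses, gave 363 to 565 and so most of this sum, which therefore does not measure fat cells alone. The summed atrial markers ran from 11058 to 58004 in del337TR hearts and from 5384 to 34639 in controls (exact permutation p = 0.129), so the atrial signal varied widely in both groups. The summed cardiomyocyte markers, between 81455 and 128154 against 90623 and 114165, marked every array as heart muscle.

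The 30 named genes with the smallest unadjusted p, 15 in each direction and with a mean signal of at least 50 in the brighter group, all had the same adjusted p of 0.403. Their log2 differences ran from 0.47 to 1.87 among the higher and from -2.27 to -0.34 among the lower genes. In 9 of the 30 the groups did not overlap, against 12 genes wholly higher and 12 wholly lower (0.066% each) among the 18193 genes read by their brightest probe set. The rule took the probe set with the smallest p of each gene, so these sizes are a description of what was chosen.

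Olfml3, a secreted olfactomedin-like protein of the matrix, led the higher genes by p. Its signal ran from 280 to 492 with a median of 358 in treated controls and from 468 to 642 with a median of 567.7 in treated del337TR hearts, a log2 difference of 0.59 ± 0.13 (SE, n = 7 per group, unadjusted p = 8.2e-05). The ranges met only at control replicate 2, and 6 of 7 controls lay below every del337TR array. Pbxip1, which encodes a partner of PBX homeodomain proteins, stood at 872 to 1544 in controls and 1581 to 1901 in del337TR hearts (0.47 ± 0.11), with no overlap and with both of its probe sets higher at an unadjusted p under 0.05. Gcnt1, the enzyme that starts branches on O-linked sugar chains, was higher by 1.30 ± 0.29, from a control median of 200.3 to 695, also on both of its probe sets. Its controls were divided in the way described above, with 481, 463 and 410.5 in replicates 3, 2 and 5 and 141 to 200.3 in replicates 1, 4, 6 and 7.

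Another 4 genes were wholly higher in del337TR hearts. Spats2l rested on dim signals, 6.9 to 39 in controls and 39.6 to 101 in del337TR hearts (1.34 ± 0.31). Kyat1, a kynurenine aminotransferase, stood at 49.1 to 71.2 against 79.2 to 127 (0.68 ± 0.16), but its other 3 probe sets were not higher. Gipc2, a PDZ-domain scaffold, stood at 91.8 to 143 against 146 to 233 (0.63 ± 0.16), and 2810408B13Rik at 6.9 to 60.2 against 64.6 to 122 (1.29 ± 0.31). In each of these the highest control lay close to the lowest del337TR array.

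The heparan sulphate proteoglycan Gpc4 had a control median of 211 and a del337TR median of 417 (0.73 ± 0.18), with both probe sets at an unadjusted p under 0.05. The tetraspanin Tspan2 was higher on 3 of 3 probe sets, by 0.71 ± 0.17 on the one named. Kdelr3, which returns proteins to the endoplasmic reticulum, stood at 0.74 ± 0.18, the keratin Krt8 at 0.67 ± 0.16 and the endocytosis protein Dnm1 at 0.64 ± 0.15. The largest log2 difference on this side, 1.87 ± 0.43 for the taurine transporter Slc6a6, came from a dim probe set with 11.9 to 18.8 in controls, and of its other 3 probe sets none had an unadjusted p under 0.05.

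Rmc1, a subunit of the complex that matures endosomes, had the smallest p of all 45037 probe sets (2.4e-05). Its controls ran from 380 to 514 with a median of 435, and its del337TR hearts from 278 to 375 with a median of 292, a log2 difference of -0.49 ± 0.09 with no overlap. The second Rmc1 probe set stood at -0.10 without an unadjusted p under 0.05, and the mean of both at -0.29. Fzd6, a receptor for Wnt ligands, stood at 429 to 501 in controls and 259 to 366 in del337TR hearts (-0.59 ± 0.14). Here the controls lay close together, and replicates 1, 4, 6 and 7 did not stand apart from the others, but 1 of its other 2 probe sets was higher. Jtb stood at 1757 to 2556 against 1309 to 1700 (-0.37 ± 0.09) and C2cd2 at 89.4 to 141 against 54 to 88.2 (-0.80 ± 0.19), both without overlap. Of the 4 C2cd2 probe sets 1 was higher, and the mean over all 4 stood at -0.34.

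Rbm5, an RNA-binding regulator of splicing, was lower on all 5 of its probe sets, 2 of them at an unadjusted p under 0.05, and stood at -0.65 ± 0.13 on the one named, with control signals of 176 to 276 and del337TR signals of 92.4 to 177. Ppil1, a prolyl isomerase of the spliceosome, had medians of 965 in controls and 632 in del337TR hearts (-0.51 ± 0.12). Tmem41b, a lipid-moving protein of the endoplasmic reticulum, was lower on 6 of 6 probe sets, 4 of them at an unadjusted p under 0.05. Stard3, a cholesterol-binding protein of late endosomes, stood at -0.61 ± 0.15, Stoml2, a scaffold of the inner mitochondrial membrane, at -0.34 ± 0.08, and the chromatin reader Phf20l1 at -0.43 ± 0.10, although another of its 5 probe sets was higher at an unadjusted p under 0.05. Dim probe sets gave the largest log2 differences on this side, -2.27 ± 0.47 for Mrgpre with 23.6 to 83.9 in controls and 2.3 to 33.7 in del337TR hearts, and -2.05 ± 0.49 for the neural adhesion gene Cntn2. The remaining named genes were 1500009L16Rik and Akap3 on the higher side and St8sia2, Parp6 and Pms1 on the lower side.

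**Figure D3:**
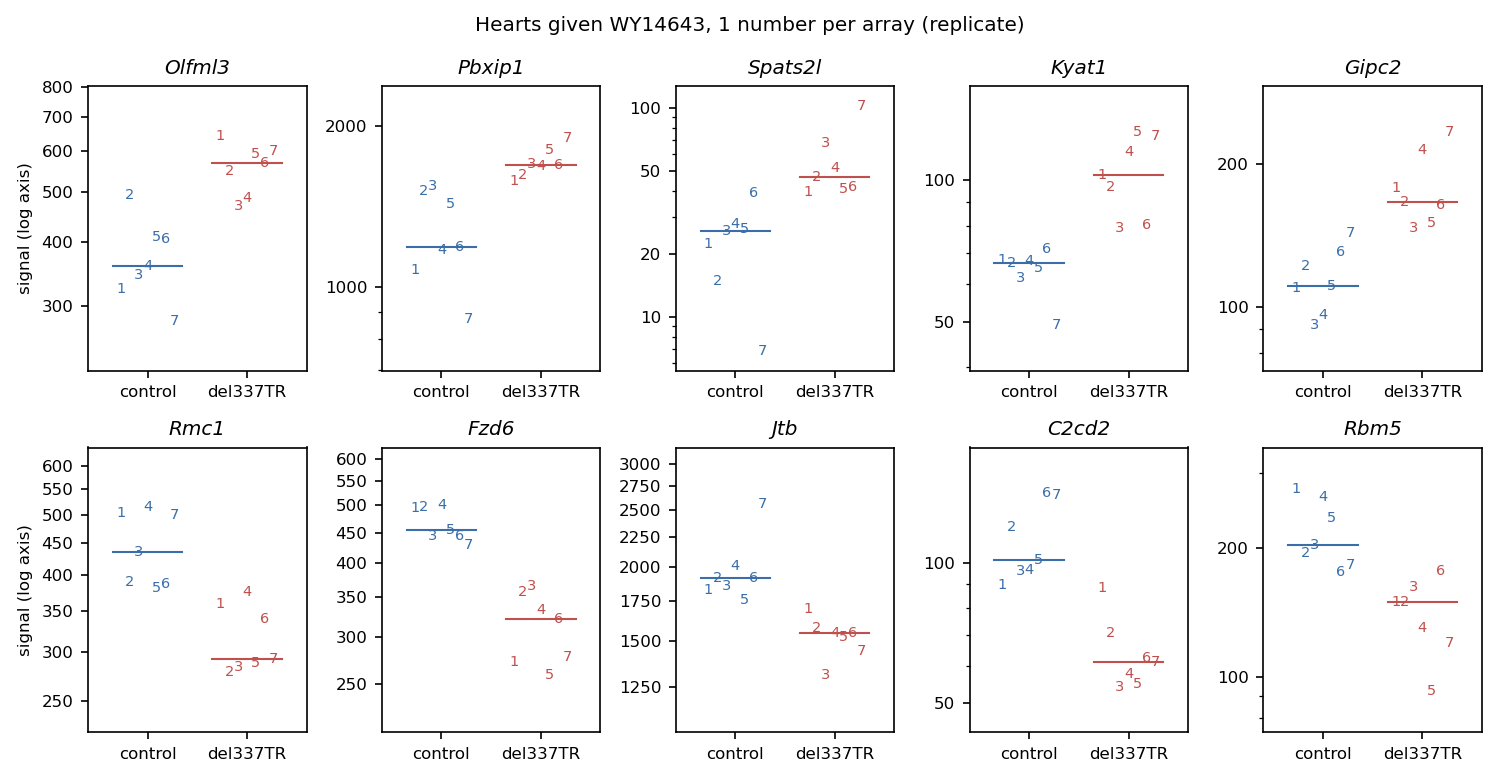
Signal on a log axis (vertical) in control and del337TR hearts given WY14643 (horizontal) for 10 of the 30 genes with the smallest p, 5 higher and 5 lower. Each number is 1 array, printed as its replicate number, and the horizontal bar is the group median. Olfml3 and Rbm5 overlap between the groups and the other 8 genes do not.

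Genes that thyroid hormone induces leaned lower in the treated del337TR hearts. Of 16 listed genes 13 were measured, 10 of them lower, and 6 of 13 (46.2%) had an unadjusted p under 0.05, all lower, against 4.57% lower and 10.2% in either direction among all genes. The list median was -0.23 log2 units, and no member passed the adjusted threshold. The 6 genes were Thrsp, Ucp3, Hr, Kcnd2, Hcn2 and Slc2a4. The count was 3 without control replicate 1 or without control replicate 6, and 4 without control replicate 7.

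Thrsp, a lipogenic protein named for its response to thyroid hormone, gave signals of 1537, 696, 732, 1970, 878, 1261 and 1769 in control replicates 1 to 7. In del337TR replicates 1 to 7 it gave 756, 756, 846, 703, 507, 574 and 428. Control replicates 1, 4, 6 and 7 thus stood well above every del337TR array, replicate 5 just above, and replicates 2 and 3 within the del337TR range. The log2 difference was -0.88 ± 0.22 (unadjusted p = 4e-04), and -0.78 without control replicate 7. A second probe set was also lower at an unadjusted p under 0.05 (-0.47), but another one, with mean signals of 27.6 and 58.5, was higher by 1.24, also at an unadjusted p under 0.05. The mean over the 3 Thrsp probe sets was -0.04.

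Ucp3, the muscle uncoupling protein of mitochondria and a target of both thyroid hormone and PPARs, stood at 546 to 1604 with a median of 967 in controls and at 368 to 945 with a median of 576 in del337TR hearts (-0.87 ± 0.28, unadjusted p = 0.0046). Both of its probe sets were lower at an unadjusted p under 0.05, and 4 controls, replicates 1, 4, 6 and 7, lay above every del337TR array. Hr, a corepressor of nuclear receptors and a classical thyroid hormone target, had medians of 173 and 80.8 (-0.84 ± 0.30). Kcnd2, a potassium channel of the transient outward current, ran from 392 to 1091 in controls and from 269 to 529 in del337TR hearts (-0.61 ± 0.26), and 3 of its 4 probe sets were lower at an unadjusted p under 0.05. Hcn2, a pacemaker channel, had medians of 161 and 118 (-0.50 ± 0.21), and Slc2a4, the insulin-sensitive glucose transporter, 3752 and 3080.2 (-0.23 ± 0.10). The difference in Hcn2 was -0.36 without del337TR replicate 7, and in Slc2a4 to -0.17 without control replicate 6.

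The other members, looked up after their values were seen, were mixed. Klf9, a transcription factor that thyroid hormone raises in many tissues, stood at -0.21 ± 0.11 (unadjusted p = 0.066). Atp2a2, the calcium pump of the sarcoplasmic reticulum and a known hormone target in heart, stood at 0.01 ± 0.11 on its brightest probe set, with controls at 12295 to 14493 and del337TR hearts at 11020.1 to 19069. Its other 5 probe sets were lower, 3 of them at an unadjusted p under 0.05, so the gene gave no single answer on this array.

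Because 2 of the 4 thyroid-induced genes of this kind found in the promoter table, and Lpin1 among the PPAR cofactors, carry the receptor hexamer, these 3 promoters are shown. Pparg, on the same list as Lpin1, also carries it in 2 of its promoters, beginning 28 and 9 bases before the start, and is not shown. The sequences are RefSeq's, build GRCm38.p6, the 250 bases before the transcription start, printed 5′ to 3′ on the gene's strand with each AGGTCA, or TGACCT where it lies on the opposite strand, in capitals.
Ucp3, chr7:100472741-100472990, plus strand: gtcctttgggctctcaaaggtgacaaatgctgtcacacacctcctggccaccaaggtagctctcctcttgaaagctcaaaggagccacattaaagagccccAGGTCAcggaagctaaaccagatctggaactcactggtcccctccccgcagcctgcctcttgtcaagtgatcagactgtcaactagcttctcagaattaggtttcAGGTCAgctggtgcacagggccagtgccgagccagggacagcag
Hcn2, chr10:79716384-79716633, plus strand: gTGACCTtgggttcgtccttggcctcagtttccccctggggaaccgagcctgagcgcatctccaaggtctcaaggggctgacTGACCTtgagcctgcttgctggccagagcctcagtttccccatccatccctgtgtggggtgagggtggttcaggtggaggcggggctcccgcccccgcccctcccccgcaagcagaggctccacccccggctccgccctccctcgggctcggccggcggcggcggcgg
Lpin1, chr12:16610967-16611216, minus strand: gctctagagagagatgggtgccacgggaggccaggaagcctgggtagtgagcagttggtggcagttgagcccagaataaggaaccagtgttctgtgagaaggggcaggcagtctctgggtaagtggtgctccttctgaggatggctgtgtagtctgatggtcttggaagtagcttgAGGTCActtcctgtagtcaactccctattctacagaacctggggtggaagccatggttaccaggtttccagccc
In Ucp3 the hexamers begin 149 and 44 bases before the start, in Hcn2 249 and 168 bases before it, and in Lpin1 74 bases before it. The hexamer, read on both strands, is in 14% of all 32851 promoters of that table and in the promoters of 13 of the 90 genes named here that matched it. These shares are not fully alike, since a gene counts with the hexamer in any of its promoters. Promoters of a single chromosome were also left out for the named genes but not for the 14%. The direct repeats AGGTCANAGGTCA and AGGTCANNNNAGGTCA, spaced as PPAR and thyroid receptor pairs prefer, are in 0.0335% and 0.0152% of all promoters and in none of the 90. A match is a string of letters in a window, and nothing here measured binding.

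The slow myosin Myh7, which thyroid hormone represses, showed the same division of the controls from the other side. Its signals were 6007, 17697, 18240, 4240, 18817, 3921 and 4520 in control replicates 1 to 7, and between 14677 and 24981 in all 7 del337TR hearts. Control replicates 1, 4, 6 and 7 were therefore below every del337TR array and replicates 2, 3 and 5 within their range, and the log2 difference of 1.14 ± 0.38 (unadjusted p = 0.006) is the mean of these. Leaving out 1 treated array at a time gave 0.95 to 1.33. In untreated hearts the controls stood between 14554 and 20992 except for replicate 7 at 3103, and del337TR hearts between 14572 and 19366. The fast myosin Myh6 mirrored this on 1 probe set, with 8017, 2112, 2835, 7047, 3328, 7962 and 7926 in control replicates 1 to 7 and 2412 to 3742 in del337TR hearts (-0.69 ± 0.26, unadjusted p = 0.014). On the brighter Myh6 probe set the groups stood close, 14019 to 19894 against 12560 to 20932 (-0.09 ± 0.11). Myh6 and Myh7 are closely related in sequence, and how specific these probe sets are was not tested.

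All 8 hormone-repressed genes on the list were higher in del337TR hearts, by 0.03 to 1.14, but only Myh7 had an unadjusted p under 0.05 (12.5%), and 6 of 8 were higher when each array was centred on its median. Of 12 receptors and cofactors measured, 1 had an unadjusted p under 0.05, Crym, a thyroid hormone binding protein, at 2.5 to 29.9 in controls and 9.6 to 55.6 in del337TR hearts (1.27 ± 0.55), which is near the floor of the array. Thrb, the receptor beta, had medians of 135 and 151 (0.05 ± 0.15). Thra, the receptor alpha, stood at 0.20 ± 0.12, 0.20 ± 0.16 and -0.04 ± 0.22 on its 3 probe sets. The signs of the Thrb value and of the last Thra value turned under other settings, and since the labels do not name the deleted stretch these signals check no label.

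**Figure D4:**
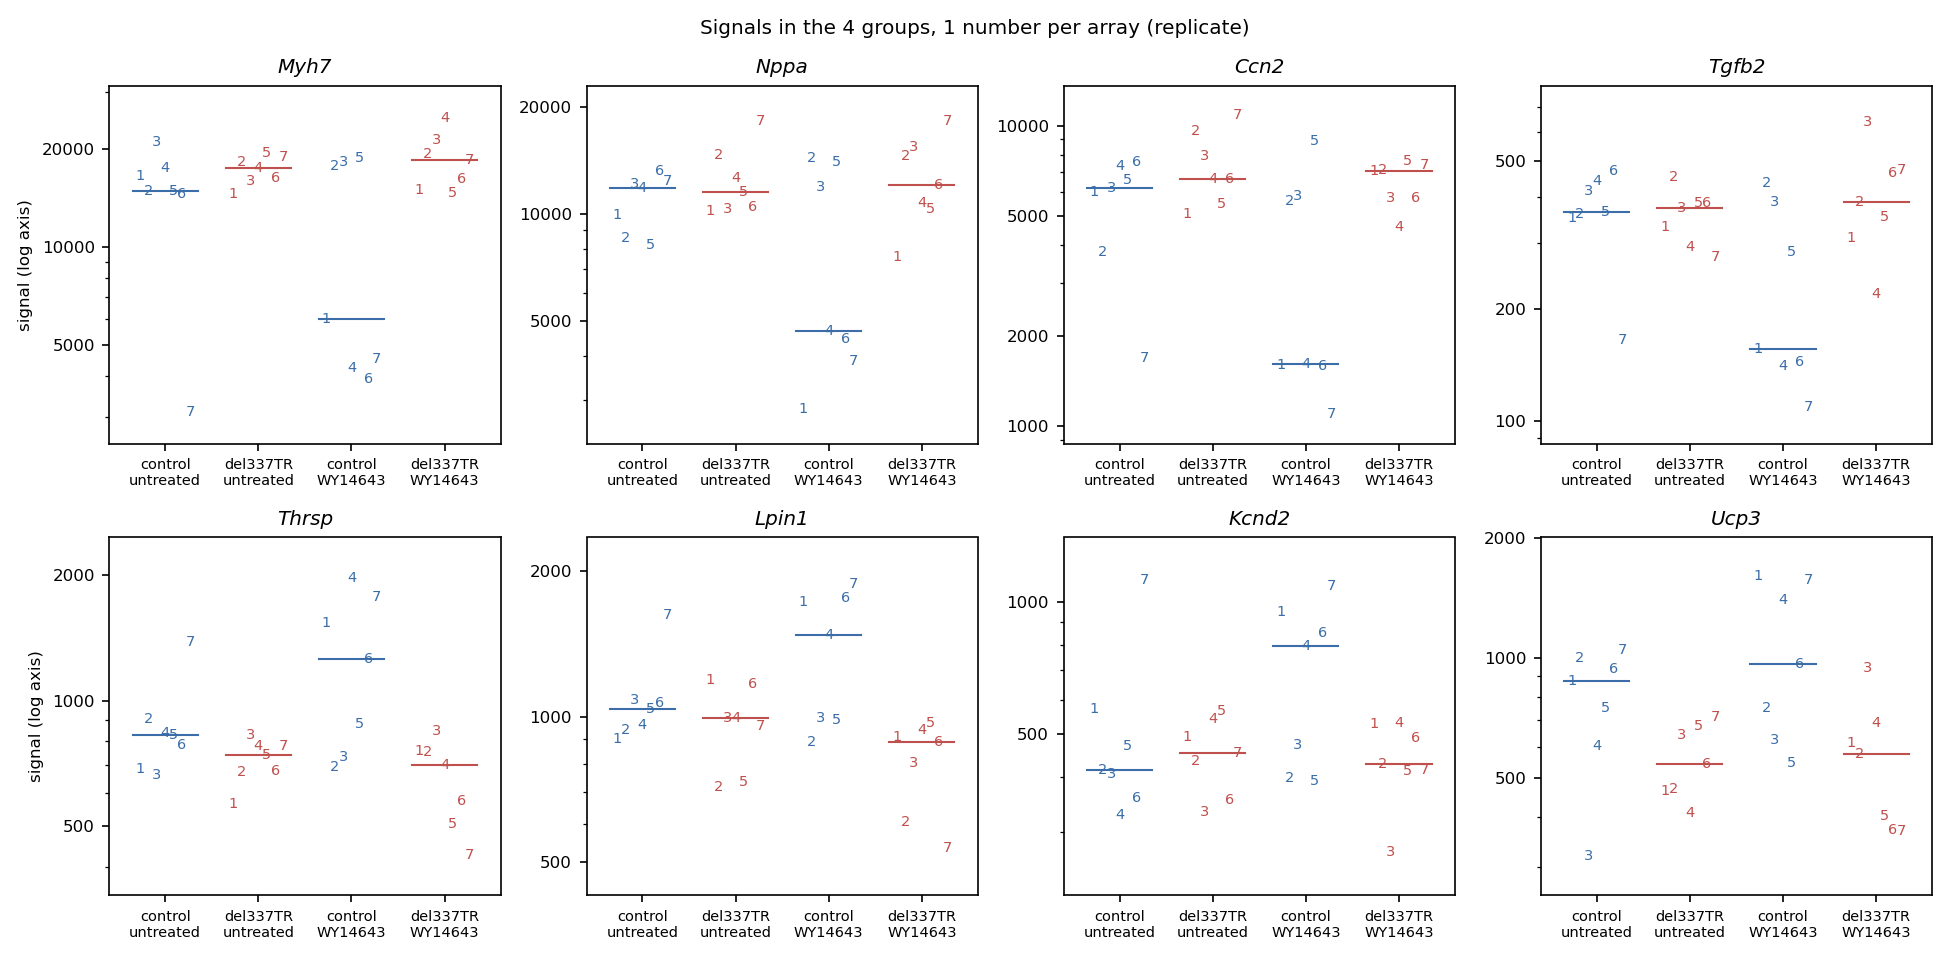
Signal on a log axis (vertical) of 8 genes in the 4 groups of 7 hearts (horizontal), each array printed as its replicate number with the group median as a bar. In the treated controls replicates 1, 4, 6 and 7 lie apart from 2, 3 and 5 in Myh7, Nppa, Ccn2, Tgfb2, Thrsp, Lpin1, Kcnd2 and Ucp3, and untreated control replicate 7 lies apart from its group in several of these.

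The receptors of the PPAR pathway themselves were among the lower genes. Of 12 receptors and cofactors, 6 (50%) had an unadjusted p under 0.05, 5 lower and 1 higher, with a list median of -0.14, and none passed after adjustment. Leaving out del337TR replicate 5 lowered the count to 3. Ppard, the receptor delta, stood at 178 to 382 in controls and 104 to 170 in del337TR hearts (-0.67 ± 0.18, unadjusted p = 0.00076), without overlap on its brighter probe set, while its second probe set was higher by 0.24. Pparg, the fat cell receptor, was dim, with medians of 79.2 and 33.6 (-1.11 ± 0.32). Ppara, the receptor of WY14643, was lower on 3 of 3 probe sets, by -0.31 ± 0.15, -0.41 ± 0.18 and -0.09 ± 0.20, and on the one at -0.41 the controls ran from 639 to 1476 and the del337TR hearts from 481 to 1002.

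Lpin1, a phosphatidate phosphatase that also coactivates PPARalpha, gave 1728, 887, 995, 1472, 986, 1757 and 1877 in control replicates 1 to 7 and 535 to 969 in del337TR hearts (-0.75 ± 0.19, unadjusted p = 0.00046). All 7 controls but replicate 2 were above every del337TR array, though replicates 3 and 5 only barely, and both probe sets of the gene were lower. The coactivator Ppargc1a went the other way, with 674 to 2347 and a median of 1242 in controls against 1405 to 2541 and a median of 1696 (0.55 ± 0.23), higher on 5 of 5 probe sets and on 4 of them at an unadjusted p under 0.05. Its partner Esrra stood at -0.29 ± 0.14, with medians of 1503 and 1043.

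The targets of PPARs gave no stable common direction. Of 20 measured targets of lipid uptake and fuel switching 10 were higher and 10 lower, with a median of -0.002, and 3 (15%) had an unadjusted p under 0.05, all lower. The even split depended on the scaling and on single arrays, since 4 of 20 were higher with each array centred on its median (list median -0.08), 3 among males alone (-0.11) and 4 without del337TR replicate 4 (-0.06). Besides Ucp3 the 3 genes were Cpt2, the inner carnitine palmitoyltransferase, with medians of 3520.4 and 2832 (-0.34 ± 0.12), and Plin4, a lipid droplet coat protein, with 2344 and 1993 (-0.45 ± 0.16). Pdk4, the kinase that shuts off pyruvate oxidation and a well known PPAR target, stood at 12685 to 12955 in controls and 10827 to 16817 in del337TR hearts, a log2 difference of 0.02 ± 0.09 whose sign turned under some settings. The 7 controls lay close together and the del337TR hearts spread to both sides of them, 3 above and 4 below.

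Mitochondrial genes leaned slightly lower as whole sets while few single genes stood out. For fatty acid oxidation 14 of 18 genes were lower, with a median of -0.07, and 2 (11.1%) had an unadjusted p under 0.05, Cpt2 and Acadvl, the very-long-chain acyl-CoA dehydrogenase (-0.19 ± 0.08). All 22 subunits of respiratory complex I were lower, the farthest at -0.19, with a median of -0.09 and 1 (4.55%) at an unadjusted p under 0.05, Ndufs7 (-0.19 ± 0.08). For complexes III, IV and ATP synthase 21 of 23 were lower with a median of -0.05, and the 1 gene at an unadjusted p under 0.05 (4.35%) was the muscle subunit Cox7a1 (-0.23 ± 0.11). The citric acid cycle had 14 of 16 genes lower, a median of -0.05 and 0 at an unadjusted p under 0.05. Such small shared shifts depend on the scaling, and the complex I median was -0.08 after quantile normalization and -0.17 when each array was centred on its median. They depend on single arrays too. Without del337TR replicate 1 the medians were -0.05 for complex I, -0.01 for complexes III, IV and ATP synthase, where 9 of 23 genes were then higher, and -0.02 for the citric acid cycle. Without control replicate 7 they were -0.05, -0.02 and -0.02, with -0.04 for fatty acid oxidation, and without del337TR replicate 4 they were -0.14, -0.12 and -0.09, with -0.11 for fatty acid oxidation.

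The mitochondrial ribosome stood out more than the complexes. Of 20 subunits 19 were lower, and 7 (35%) had an unadjusted p under 0.05, all lower, with a list median of -0.16. They were Mrps28, Mrps35, Mrpl3, Mrpl2, Mrps25, Mrpl4 and Mrps5, with log2 differences between -0.28 and -0.19. Of the 5 Mrps5 probe sets 2 were higher, and the mean over all 5 stood at -0.11. Mrps28 had medians of 1729 in controls and 1474 in del337TR hearts (-0.24 ± 0.09) and Mrps35 of 1069.5 and 947 (-0.20 ± 0.08). Control replicate 7 was the highest array for both Mrps35 and Mrps25, and without it Mrpl3, Mrps28, Mrps35 and Mrpl4 kept an unadjusted p under 0.05, 4 in all, and the list median was -0.10. The 15 cytosolic ribosomal genes measured had a median of -0.02 and 0 at an unadjusted p under 0.05.

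In pyruvate oxidation 5 of 12 genes (41.7%) had an unadjusted p under 0.05, in both directions. Pdk1, a kinase that inhibits pyruvate dehydrogenase, had medians of 2449 in controls and 3183 in del337TR hearts (0.38 ± 0.14) on 3 of 4 probe sets, and Pdp1, an opposing phosphatase, stood at 0.28 ± 0.13. The second phosphatase Pdp2 stood at -0.50 ± 0.21, and the enzyme subunits Dlat and Pdhb at -0.29 ± 0.10 and -0.20 ± 0.09, Dlat on 3 of 3 probe sets. Without control replicate 7 the count was 2, without control replicate 1 it was 3, and among males alone it was 1. In glycolysis 2 of 16 genes (12.5%) had an unadjusted p under 0.05, Slc2a4 and the hexokinase Hk1, the latter higher by 0.28 ± 0.11 on both probe sets.

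Lipid synthesis leaned lower, with 12 of 14 genes lower, a median of -0.20 and 4 (28.6%) at an unadjusted p under 0.05. These were the desaturase Scd1 (-0.42 ± 0.19), the carbohydrate-sensing factor Mlxipl (-0.26 ± 0.12), the acyltransferase Dgat1 (-0.24 ± 0.10) and the carboxylase Acacb (-0.23 ± 0.10). The second probe set of Dgat1 and of Acacb was higher, and the mean of each gene's probe sets stood at 0.06 and 0.01. This count ranged from 0 without del337TR replicate 7 to 7 without control replicate 5. Among peroxisomal genes 1 of 15 (6.67%) had an unadjusted p under 0.05, the transporter Abcd3 (-0.27 ± 0.10), whose other probe set was higher by 0.22 and whose mean over both was -0.02.

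Genes of the fetal and overloaded heart leaned higher, with more members at an unadjusted p under 0.05 on that side than any other list. Of 16 measured genes 13 were higher, and 7 (43.8%) had an unadjusted p under 0.05, all higher, against 5.65% higher among all genes, with a list median of 0.37. They were Ankrd2, Ccn2, Myh7, Nppa, Acta1, Ankrd1 and Fhl1. The count was 4 without control replicate 4, 4 when each array was centred on its median, and 3 among males alone.

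Nppa, the atrial natriuretic peptide that ventricles express before birth and under load, gave 2838, 14345, 11892, 4703, 14027, 4452 and 3877 in control replicates 1 to 7. In del337TR hearts it ran from 7564 to 18239 with a median of 12057 (0.89 ± 0.30, unadjusted p = 0.0065), so that control replicates 1, 4, 6 and 7 were again below every del337TR array. Atrial tissue carries much of this transcript. The summed atrial markers, of which Nppa is itself a member, were 5384, 34639, 13512, 10128, 30335, 10588 and 8527 in control replicates 1 to 7, lower in replicates 1, 4, 6 and 7 than in the others. Because the sum holds the Nppa signal, it cannot show the amount of atrial tissue apart from Nppa. Leaving out arrays aside, the Nppa difference ranged from 0.81 to 0.89 over the alternatives to the main fit. These include a fit with an atrial score of Myl4, Myl7 and Sln as a term. Beyond that fit, the part of atrial tissue in the Nppa difference was not tested. Ccn2, a matricellular protein of the TGF-beta response, gave 1604, 5625, 5824, 1613, 8894, 1580 and 1095 in the controls and 4591 to 7607 in del337TR hearts (1.20 ± 0.39, unadjusted p = 0.0053). Leaving out control replicate 7 gave 0.97. Untreated controls of Ccn2 also held 1 low array, replicate 7 at 1684.

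Skeletal actin Acta1, a sarcomeric gene of the fetal heart, had medians of 8547 and 10809.6 (0.45 ± 0.19). The stretch-response gene Ankrd1 stood at 0.33 ± 0.14 and the muscle LIM gene Fhl1 at 0.29 ± 0.13. The second Fhl1 probe set stood at -0.05, and the mean of both at 0.12. Ankrd2 showed the largest log2 difference on the list, 1.86 ± 0.54, from dim signals of 5.4 to 65.8 in controls and 21.3 to 105 in del337TR hearts. In the sarcomere list 2 of 20 genes (10%) had an unadjusted p under 0.05, Myh7 and the Z-disc gene Myoz2 (-0.21 ± 0.10).

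Among immediate early genes, which cells switch on within minutes of a stimulus or of handling, 18 of 20 were higher with a median of 0.27, and 4 (20%) had an unadjusted p under 0.05. Egr1 had medians of 447 and 988 (0.82 ± 0.38), Nr4a3 of 321 and 729 (0.93 ± 0.41) and Atf3 of 287 and 514 (0.87 ± 0.41), while the phosphatase Dusp1 was lower (-0.31 ± 0.13). Single arrays carried much of this. Del337TR replicate 5 gave the highest Egr1 and Atf3 signals, 2385 and 2299, and without it the differences were 0.57 and 0.50. Without del337TR replicate 5 the count of the list was 1, as it was without any one of control replicates 1, 4 and 5 or del337TR replicates 6 and 7.

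Chaperones had 2 of 16 members (12.5%) at an unadjusted p under 0.05, Hsp90aa1 (0.34 ± 0.12) and the inducible Hspa1b (0.65 ± 0.29), both higher. In the unfolded protein response only Herpud1, a degradation factor of the endoplasmic reticulum, was there, lower on 2 of 2 probe sets (-0.37 ± 0.13), and in oxidative defence only the plasma peroxidase Gpx3, higher (0.39 ± 0.17). Protein breakdown leaned lower. Of 13 genes 11 were lower and 3 (23.1%) had an unadjusted p under 0.05. Fbxo32, the muscle ubiquitin ligase atrogin, had medians of 1415 in controls and 960.4 in del337TR hearts (-0.59 ± 0.18, unadjusted p = 0.003) and was lower on 3 of 3 probe sets. Psmb5, a catalytic subunit of the proteasome, stood at -0.27 ± 0.08 and the muscle RING protein Trim54 at -0.28 ± 0.10. The clock repressor Bhlhe40 was higher by 0.86 ± 0.36, and by 0.63 (unadjusted p = 0.079) without del337TR replicate 5, the highest array at 791. It was the only 1 of 17 clock genes (5.88%) at an unadjusted p under 0.05.

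Extracellular matrix genes leaned higher, 21 of 23, with a median of 0.18 and 2 (8.7%) at an unadjusted p under 0.05, a share close to that of all genes that ranged from 1 gene to 6 when 1 treated array was left out (6 without control replicate 2). Col15a1, a collagen of basement membranes around muscle fibres, ran from 228 to 584 in controls and from 499 to 734 in del337TR hearts (0.58 ± 0.16, unadjusted p = 0.0011). Thbs1, a matricellular activator of TGF-beta, stood at 0.80 ± 0.39 with medians of 194 and 348. Of 19 growth factor genes of matrix cells 3 (15.8%) had an unadjusted p under 0.05, all higher, Tgfb2, Ccn2 and Ltbp1. Tgfb2, a TGF-beta ligand, was higher at an unadjusted p under 0.05 on 4 of 4 probe sets. On the brightest, control replicates 1 to 7 gave 156, 437, 387, 140, 285, 144 and 109 and del337TR hearts 219 to 637 (0.90 ± 0.29, unadjusted p = 0.0042). The binding protein Ltbp1, which stores the ligand in the matrix, stood at 0.28 ± 0.11. All 10 fibroblast markers were higher, by 0.09 to 0.38, with 0 at an unadjusted p under 0.05, and their summed signal was 31042 to 37506 in del337TR hearts and 27541 to 35749 in controls (exact permutation p = 0.0542). In these bulk samples more cells of a type and more RNA per cell cannot be told apart, and the part of the fibroblast share in the matrix genes was not tested.

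Excitation genes gave single names and no common direction. Of 20 ion channel genes 4 (20%) had an unadjusted p under 0.05. Kcnh2, a channel of the repolarizing current, stood at -0.37 ± 0.16 beside Kcnd2 and Hcn2, and the potassium channel Kcnj5 was higher (0.30 ± 0.14). The count was 1 without control replicate 7. In calcium handling, 3 of 19 (15.8%) were at that level. The ryanodine receptor Ryr2 stood at -0.21 ± 0.10 on its brighter probe set, its other probe set being higher by 0.10, the calcium-binding protein Hrc at -0.27 ± 0.10 and the kinase Camk2d at 0.19 ± 0.09. Among 11 adrenergic and G protein genes the 1 with an unadjusted p under 0.05 (9.09%) was Prkar1a, the regulatory subunit of protein kinase A, higher on 3 of 3 probe sets (0.32 ± 0.11).

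Markers of other cells were read in the same way. Adipocyte markers leaned lower, with 4 of 6 measured genes (66.7%) at an unadjusted p under 0.05, all lower, and a median of -0.54. The other 2, the hormone gene Lep (0.90 ± 0.56) and Adig (0.41 ± 0.24), stood higher without reaching it. Adipoq, the fat cell hormone adiponectin, stood at 39.7 to 152 in controls and 16.9 to 65.6 in del337TR hearts (-0.90 ± 0.44), Retn at -0.73 ± 0.33, the droplet protein Cidec at -1.63 ± 0.67 and the lipase Lipe at -0.36 ± 0.14. The second Lipe probe set was higher by 0.35, and the mean of both stood at -0.002. Retn and Adipoq never exceeded 177 and Cidec 32.8, while Lipe, which heart muscle also expresses, reached 565. The count was 1 without del337TR replicate 7, 2 without any one of control replicates 4, 6 and 7 and del337TR replicates 1 and 6, and 1 among males alone. Pparg, Scd1 and Thrsp, which fat cells express strongly, were also lower in the treated del337TR hearts. Whether they varied with this list from array to array, and the part of fat cells in them, was not tested. Endothelial genes split, with Esam at -0.39 ± 0.13 and Cdh5 at 0.46 ± 0.22 as the 2 of 12 (16.7%) at an unadjusted p under 0.05. Of the smooth muscle markers 1 of 10 (10%) was there, Smtn (0.32 ± 0.11), and of the leukocyte and of the erythroid markers 0. Among 17 interferon-induced genes Ifi27 alone had an unadjusted p under 0.05 (5.88%, 0.34 ± 0.15), and among 20 splicing genes 3 did (15%), with Clk1 at -0.43 ± 0.18, Tra2b at 0.28 ± 0.12 and Srsf3 at 0.35 ± 0.17, and none of them without del337TR replicate 5. Of the 5 Tra2b probe sets 1 was lower, at -0.52, and the mean over all 5 stood at 0.04.

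The other lists held few such genes. Atrial markers had 1 of 10 (10%), Nppa, and a median of 0.59. Ventricular markers had 1 of 5 (20%), the transcription factor Irx4 (0.32 ± 0.15), and skeletal muscle markers 2 of 12 (16.7%), Acta1 and the fast troponin Tnni2 (0.90 ± 0.43), which is dim. Nerve markers had 1 of 8 (12.5%), the neurofilament Nefl (0.52 ± 0.24). Ketone use, cholesterol synthesis, the schlafen family, the mesothelial markers and the sex-linked genes had 0.

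**Figure D5:**
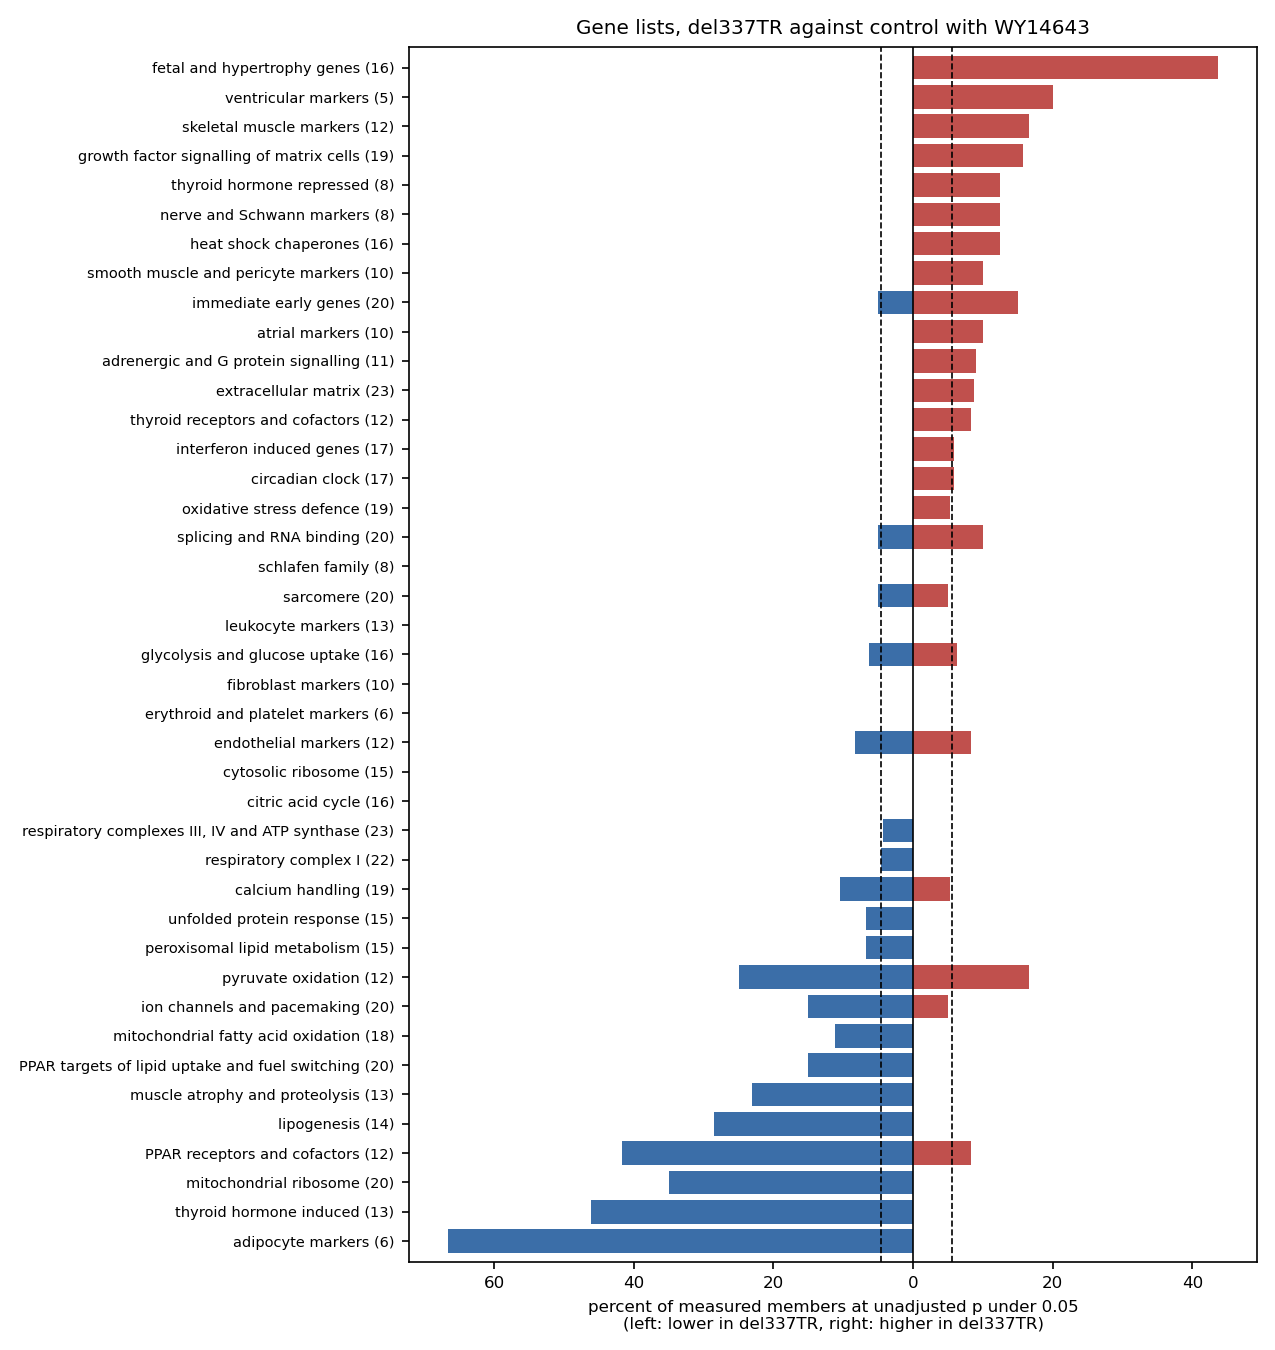
Share of the measured members of each gene list with an unadjusted p under 0.05 (horizontal axis, percent), to the left for members lower and to the right for members higher in del337TR hearts given WY14643, with the number measured in parentheses (vertical axis). Dashed lines mark the shares among all genes, 4.57% lower and 5.65% higher. Fetal genes (43.8%) reach farthest to the right and adipocyte markers (66.7%) and thyroid-induced genes (46.2%) farthest to the left.

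The strain contrast without WY14643 rests on the other 14 arrays and can be set beside the treated one. There 1806 probe sets (4.01%) had an unadjusted p under 0.05, fewer than the 2252 expected, and 1 (0.00222%) passed after adjustment, Slfn3 of the schlafen family (adjusted p = 0.0456 in limma). It did not pass with the replicate block or with sex as a term, and passed in 3 of the 14 fits that left out 1 treated array. Those fits keep every untreated array and change only the shared estimate of the spread. With log2 of the signal plus 16, quantile normalization or centring on array medians, 1 probe set passed in each. The lowest adjusted p in limma was then 3.4e-07, 0.0499 and 0.0424. With WY14643 Slfn3 stood at 2.6 to 10.3 in controls and 0.8 to 13.1 in del337TR hearts, near the floor of the array in both (-1.33 ± 0.71). Of the 3991 probe sets of the treated contrast 2465 (61.8%) had the same sign without WY14643, against 52.1% of the other probe sets, and 124 also had an unadjusted p under 0.05 there with the same sign. Across these probe sets, which are not independent of each other, the correlation of both log2 differences was 0.13.

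The difference of the strain effects, with WY14643 minus without, was tested directly. No probe set passed after adjustment in limma (lowest adjusted p 0.439), and 2207 (4.9%) had an unadjusted p under 0.05, close to the 2252 expected. No gene was thus shown to differ between strains more with WY14643 than without. Of the 30 genes named by p, 21 had the same sign in untreated hearts, none with an unadjusted p under 0.05 in that direction, and all 30 had a smaller log2 difference there, which the choice by the treated contrast favours. St8sia2, a polysialyltransferase, had the smallest p of the difference (9.7e-06), at -1.43 ± 0.33 with WY14643 and 1.13 without, on a dim probe set with medians of 85.3 in treated controls and 26.2 in treated del337TR hearts. The second probe set of St8sia2 stood at -0.16 with WY14643.

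The gene lists differed in how they stood without WY14643. The fetal genes had medians of 0.37 with and 0.19 without WY14643 and the extracellular matrix 0.18 and 0.10. Thyroid-induced genes stood at -0.23 and -0.08, the mitochondrial ribosome at -0.16 and -0.02, and PPAR receptors and cofactors at -0.14 and -0.02. Adipocyte markers had opposite signs, -0.54 and 0.35, and complex I genes too, with all 22 lower with WY14643 and 20 of 22 higher without, where 50.3% of all genes were higher. This turn was not particular to complex I. In complexes III, IV and ATP synthase 21 of 23 genes were lower with WY14643 and 23 of 23 higher without. The citric acid cycle had 14 of 16 lower and 13 of 16 higher, and the cytosolic ribosome 11 of 15 lower and 15 of 15 higher. Among single members, the difference had an unadjusted p under 0.05 for 3 of the 13 thyroid-induced genes, 3 of the 12 PPAR receptors and cofactors, 3 of the 6 adipocyte markers, 3 of the 20 mitochondrial ribosomal genes and 1 of the 16 fetal genes, against 4.64% of all genes. For the 22 complex I genes, whose medians were -0.09 with and 0.05 without WY14643, the count was 0. Thrsp gave -0.64 (unadjusted p = 0.047), Lpin1 -0.58 (unadjusted p = 0.037), Ppard -0.68 (unadjusted p = 0.011), Tgfb2 0.89 (unadjusted p = 0.037) and Myh7 0.73 (unadjusted p = 0.19), none of which passed after adjustment.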

How the data were processed

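The authors deposited 1 linear intensity for each probe set of an array, between 0 and 26183.2. RMA is named in the submitters' processing notes, but these values were not logarithms and had a common trimmed mean (2% off either tail) of 250, so they were treated as globally scaled signals. Scanner software and batches: not given in the sources used here. Control probe sets were left out. Of the 45037 others 34945 had 1 gene symbol in the platform annotation, 932 several and 9160 none, and only those with 1 named a gene. All 28 arrays were mapped by their titles and none of the 378 pairs were identical. Median signals of the treated arrays ran from 60.1 to 77.8, and 7 arrays a group limit the precision.

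Signals were floored at 0.1 (3 values at 0) and log2 transformed. Group means over 28 arrays were fitted without covariates by limma (version 3.58.1, under R 4.3.3) with moderated variances and 24 residual degrees of freedom. Tests were two-sided, and p-values were adjusted by Benjamini-Hochberg over all probe sets at 0.05. Errors of log2 differences are limma's standard errors. The fit was tested on simulated data. Array measures were compared by exact permutation.

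Each gene was read by its brightest probe set for 45 lists of 651 genes, 590 of them measured. Members, lists and rules were chosen with earlier results of these data known. Named were the 15 genes with the smallest p in each direction with a mean signal of at least 50, up to 3 members a list, Myh6, Myh7, Slfn3, Pdk4 and all probe sets for Ppara, Thra and Thrb. Kcnd2, Hcn2, Slc2a4, Ppargc1a, Esrra, Pdhb, Pdp1, Mlxipl, Nppa, Acta1, Ankrd1, Fhl1, Atf3, Adipoq, Mrpl2, Mrps25, Mrpl4, Mrps5, Atp2a2, Klf9, Myoz2, Kcnj5, Srsf3, Irx4, Tnni2, Nefl, Lep and Adig were added after their values were seen. Alternatives were log2 of the signal plus 16, a filter at the 40th percentile, eBayes with trend, array weights, quantile normalization, median centring, the treated arrays alone, the replicate number, a principal component, sex and atrial score as terms, males alone, a fold of 1.5, the mean of a gene's probe sets, and leaving out each treated array. Leaving out arrays for the list counts was chosen after seeing the data.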

Additional observations from a re-analysis of the deposited data

Results flagged for a closer look

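In groups of 7 arrays, a single array that stood far from the other six was found in 27 of the 258 groups examined (10.5%). The rule is set to about 1 in 20 for independent, normally distributed values. These were linear signals, many of genes chosen by the contrast, on the same arrays, so that rate is no measure of chance here. Control replicate 7 with WY14643 held 8 of the 27. It was high for Acadvl (10004), Adipoq (152), Jtb (2556), Mrps25 (1382) and Mrps35 (1290.5), low for Kyat1 (49.1), high for the actin 3′ to 5′ ratio (1.82) and low in its mean correlation with its own group (0.931). Del337TR replicate 5 with WY14643 held 4, all high, for 1500009L16Rik (390.6), Atf3 (2299), Bhlhe40 (791) and Egr1 (2385). Del337TR replicate 4 was high for Cox7a1 (10927), Pms1 (93.1) and Ryr2 (6258). Del337TR replicate 7 was low for Hcn2 (61.4) and high for Tspan2 (172) and for the summed atrial markers (58004). Del337TR replicate 3 was high for Hsp90aa1 (8948) and Psmb5 (3368), replicate 1 for Retn (154) and replicate 6 for St8sia2 (66). Among the other treated controls, replicate 1 was high for Ppard (382), replicate 2 for Egr1 (1145) and replicate 5 for Ankrd2 (65.8), and replicate 3 was low for Cntn2 (19) and Lipe (363).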

How the results depend on the processing

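The count of probe sets past the threshold under WY14643 was 0 under all alternatives, with a lowest adjusted p from 0.0579 (mean of a gene's probe sets) to 0.602 (without control replicate 4). Leaving out 1 treated array gave 3376 to 4418 probe sets at an unadjusted p under 0.05. The replicate numbers did not pair the arrays (correlations of same-numbered deviations from -0.01 to 0.05, 1 of 7 arrays best with its own number), and the replicate block left 0 past the threshold, with 4205 at an unadjusted p under 0.05. For the untreated contrast the count of 1 was 0 with the replicate block, 0 with the sex covariate, 2 in males only (Actl7a and Cox6b2) and 0 to 1 when 1 treated array was left out. It stayed at 1 with log2 of the signal plus 16 (lowest adjusted p 3.4e-07 in limma), quantile normalization and median centring. The difference of effects gave 1 in place of 0 with log2 of the signal plus 16 (Slfn3, 2.15, adjusted p 0.0019), where the other settings had a lowest adjusted p over all probe sets from 0.0518 to 0.97 and 0 without any 1 treated array. No named probe set passed the adjusted threshold under any setting, so its side of the threshold is no measure of stability. Whether each kept an unadjusted p under 0.05 was not counted, and some did not, such as Acta1 and Slc2a4 among males alone. Of 3339 alternative values of named probe sets 3315 kept their sign and 24 turned it. With the mean of a gene's probe sets Acacb stood at 0.0066, Dgat1 at 0.0616, the Thra probe set at -0.04 in the main setting at 0.119 and Atp2a2 at -0.346. With array weights Pdk4 stood at -0.0123 and Atp2a2 at -0.0207. With centring Pdk4 stood at -0.0629, Thrb at -0.0324 and Atp2a2 at -0.0674. In males Pdk4 stood at -0.0443, Thrb at -0.113, Atp2a2 at -0.0195 and that Thra probe set at 0.0367. Leaving out 1 array gave Pdk4 from -0.0441 to 0.0618, Thrb from -0.0097 to 0.131, Atp2a2 from -0.0658 to 0.0661 and that Thra probe set from -0.157 to 0.0827. The cause was not tested. Leaving out single arrays for list counts was chosen after seeing the data. Dim probe sets limit fold sizes.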
